A study of Mus musculus with 4 samples.

Results

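The 10 genes Arg1, Mrc1, Retnla, Chil3, Cd163, Folr2, Spp1, Gpnmb, Nos2 and Mgl2 were followed through ascites cells of mice with ovarian tumours. They were chosen by name, as genes used to describe macrophage activation, from 29835 genes listed across the deposited count matrices, and all 10 were listed in every library. Macrophages exposed to the cytokines IL-4 and IL-13 signal through the transcription factor STAT6 and take up a state called alternative activation, in which they make arginase, mannose-binding receptors and small secreted proteins. Nos2, the inducible nitric oxide synthase, uses the same substrate as arginase and is the usual marker of the opposing classical state. Folr2 and Cd163 are receptors of tissue macrophages, and Spp1 and Gpnmb are read as genes of lipid-laden or tumour-associated macrophages.

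All groups were C57BL/6 mice, female and 6 weeks old in the study's methods, that received ID8-Trp53-/- cells into the peritoneal cavity, a mouse ovarian surface epithelial tumour line lacking the tumour suppressor Trp53 and, per the methods, transduced with a lentivirus encoding the fluorescent protein iRFP. Treatment started after 7 days and ended when roughly 3 mL of ascites were present. The control group received DMSO and the IgG2a isotype antibody, the BTYNB group BTYNB and the isotype antibody, the anti-PD-1 group DMSO and the PD-1 blocking antibody RMP1-14, and the combination group BTYNB and RMP1-14. BTYNB is a small-molecule inhibitor of the RNA-binding protein IGF2BP1. The labels give 50 mg/kg of BTYNB and 100 ng of antibody per dose, while the methods state other amounts. Ascites cells were depleted of erythrocytes, frozen, freed of dead cells, pooled over the animals of a group and captured on the BD Rhapsody system, so that each group is 1 library. The values of single animals within a pool cannot be told apart, and no comparison has a replicate check or a p-value. All intervals cover counting error at the 95% level only.

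Sequence upstream of the start site is shown for Retnla and Chil3, because both are textbook targets of IL-4 in mice. In BTYNB and combination, both genes were found together in fewer macrophages than the product of their separate shares. The windows hold the 250 bases before the RefSeq start on build GRCm38.p6, which is not the build of the counts (GRCm39), and 8 of the 10 genes had an entry. Capitals mark the letters that matched a STAT-type palindrome, TTCNNNNGAA or TTCNNNGAA, each its own reverse complement, so that 1 search covered both strands. The window of Retnla is chr16:48842359-48842608 on the plus strand, and that of Chil3 is chr3:106167565-106167814 on the minus strand.
Retnla: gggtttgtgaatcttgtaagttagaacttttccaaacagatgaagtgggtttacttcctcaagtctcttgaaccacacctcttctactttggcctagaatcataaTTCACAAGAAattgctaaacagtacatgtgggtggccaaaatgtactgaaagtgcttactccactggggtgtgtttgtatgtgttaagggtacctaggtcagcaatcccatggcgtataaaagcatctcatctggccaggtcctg
Chil3: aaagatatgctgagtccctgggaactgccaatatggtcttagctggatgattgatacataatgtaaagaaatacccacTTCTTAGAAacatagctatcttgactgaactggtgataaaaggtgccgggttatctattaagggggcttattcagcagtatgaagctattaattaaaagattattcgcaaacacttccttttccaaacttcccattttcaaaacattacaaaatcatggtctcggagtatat
TTCNNNNGAA, the spacing preferred by STAT6, was found in Retnla 145 bases before the start, and was present in 5.85% of the 32851 windows of that length in the table. TTCNNNGAA was found in Chil3 172 bases before the start, and was present in 7.02% of all windows. The other 6 genes with an entry (Mrc1, Cd163, Folr2, Spp1, Gpnmb and Mgl2) held neither string in this window, which says nothing of sites elsewhere.

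Cells numbered 7858 for control, 19247 for BTYNB, 12163 for anti-PD-1 and 7074 for the combination in the deposited matrices, which had between 78603888 and 114600397 UMIs. A UMI tags 1 captured transcript molecule. The shallowest cell held 869 UMIs under BTYNB but 4438 in the control, 3533 under anti-PD-1 and more under the combination, so that shallower cells were present under BTYNB only. Any pair of libraries shared 0 to 4 cell barcodes. Cells were gated by UMIs. C1q macrophages carried at least 5 UMIs of the complement genes C1qa, C1qb and C1qc, monocytes at least 3 of Lyz2 and 1 of Ly6c2 with at most 1 of C1q, and both at most 2 of the keratins Krt7, Krt8, Krt18 and Krt19. Tumour cells carried at least 5 UMIs of these keratins and Wt1 and none of the leukocyte gene Ptprc. The macrophage gate held 242 cells in the control, 1605 under BTYNB, 364 under anti-PD-1 and 923 under the combination, with median depths of 5382, 4837, 4201 and 7098 UMIs. Tumour cells numbered 7114, 3606, 10923 and 4369, with median depths of 9783, 15221, 7160 and 11503 UMIs. The monocyte gate held 704 cells under BTYNB and 64 under the combination but only 10 in the control and 2 under anti-PD-1, and monocytes were therefore compared between BTYNB and combination alone.

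The macrophage gate carried all 8 macrophage markers in every library, with a summed level of 3372 to 3811 CPM (UMIs of the gene per 1000000 UMIs of the gate) against 18.9 to 40.7 CPM in tumour cells. Monocyte markers moved between the macrophage gates. Their 8 genes summed to 4058 CPM under BTYNB but 1422 to 1815 CPM in the other 3 libraries, and the monocyte chemokine receptor gene Ccr2 stood at 1648 CPM in BTYNB against 381 to 893 CPM elsewhere. The tumour markers of this gate summed to 114 CPM under BTYNB and 459 CPM under anti-PD-1. The monocyte gates differed in markers of other cells. In BTYNB the neutrophil markers S100a8 and S100a9 were at 4136 and 4122 CPM, against 17.1 and 4.28 CPM under the combination, and the dendritic markers Xcr1 and Clec9a were at 139 and 85.0 CPM in BTYNB against 728 and 411 CPM under the combination.

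C1q macrophages held the largest share of UMIs of 6 of the 10 genes in all 4 libraries. For Arg1, which encodes arginase 1, the cytosolic enzyme that turns arginine into ornithine and urea, macrophages held 90.5% of the UMIs in the control, 82.1% under BTYNB, 80.1% under anti-PD-1 and 91.2% under the combination. Gpnmb, a transmembrane glycoprotein of lysosome-rich macrophages, was held there at 65.7 to 87.7%. Folr2, the folate receptor beta of tissue macrophages, was held there at 59.9 to 84.9% and Mrc1, the mannose receptor, at 58.8 to 64.2%. For Cd163, the haemoglobin scavenger receptor, the share was 49.5 to 72.8%, of 25 to 103 UMIs per library. For Retnla, a small secreted protein of the resistin family, it ranged from 37.8% under anti-PD-1 to 81.2% under the combination.

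The other 4 genes had further sources. Chil3, a secreted chitinase-like lectin, lay at 56.6% in the monocyte gate of BTYNB and at 23.7% in its macrophages. Mgl2, a galactose-binding lectin of macrophages and dendritic cells, was shared between macrophages (36.3, 39.0 and 43.5% in the control, BTYNB and combination) and cells with at least 2 UMIs of dendritic markers (24.9, 34.8 and 32.6%), whereas 86.1% of its UMIs under anti-PD-1 lay in tumour cells. Spp1, the secreted protein osteopontin, lay at 48.0 to 96.4% in tumour cells and at 0.204 to 10.3% in macrophages. Nos2 was sparse everywhere, with 23 to 155 UMIs per library. Tumour cells held 32.9% of these under BTYNB and 66.7 to 87.0% in the other libraries, and 28.8% of the Nos2 UMIs of BTYNB were in 526 cells with neutrophil markers, at 23.5 CPM.

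**Figure D1:**
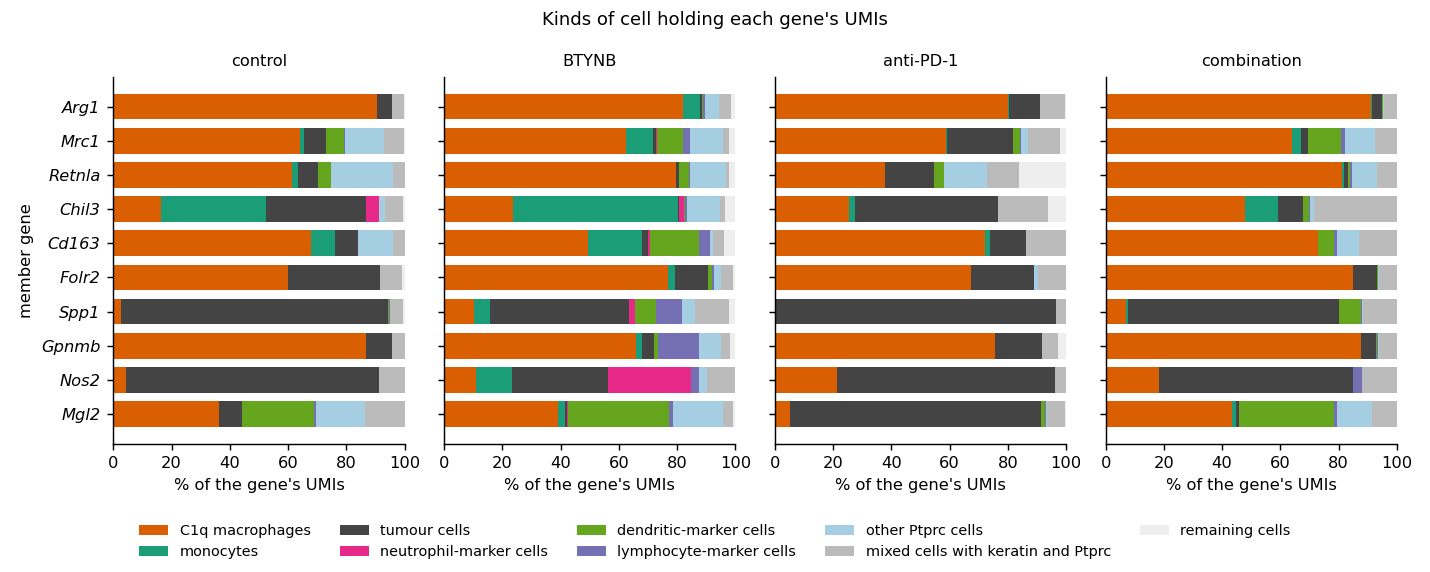
Share of each gene's UMIs (x axis, in percent) by kind of cell, with 1 panel per library and 1 bar per gene; colours are the gates and the remaining marker-defined kinds of cell. Orange (C1q macrophages) fills most of the Arg1, Gpnmb, Folr2 and Mrc1 bars in all 4 libraries, dark grey (tumour cells) most of the Spp1 bars in 3 libraries and of the Mgl2 bar under anti-PD-1.

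Arg1 was lower in both libraries with BTYNB. In C1q macrophages it stood at 2085 CPM (interval 2011 to 2161) in the control, 825 CPM (806 to 843) under BTYNB, 3551 CPM (3460 to 3643) under anti-PD-1 and 1321 CPM (1294 to 1348) under the combination. No interval overlapped another, and both libraries without BTYNB lay above both with it. With every cell thinned to 2000 UMIs, an Arg1 UMI was found in 61.05% of macrophages in the control (54.7 to 67.3), 30.4% under BTYNB (28.0 to 32.7), 80.6% under anti-PD-1 (76.3 to 84.7) and 42.7% under the combination (39.5 to 45.9). The same share was 0.316 to 1.09% in tumour cells. Thinning left out 128 BTYNB macrophages and none of the other libraries. The level also differed among Arg1-positive macrophages, at 3003 CPM in the control, 1951 CPM under BTYNB, 4202 CPM under anti-PD-1 and 2460 CPM under the combination, in the same order.

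The lectin receptors Mrc1 and Mgl2 ran in the reverse order in part. Mrc1 stood at 372 CPM (341 to 405) in the control, 532 CPM (517 to 547) under BTYNB, 267 CPM (242 to 293) under anti-PD-1 and 328 CPM (315 to 342) under the combination. BTYNB was highest and anti-PD-1 lowest, and the intervals of control and combination overlapped only at their edges. Mgl2 stood at 249 CPM (224 to 276) in the control, 429 CPM (416 to 443) under BTYNB, 122 CPM (105 to 140) under anti-PD-1 and 340 CPM (326 to 353) under the combination. Its share of macrophages after thinning was 23.2%, 19.5%, 8.86% and 23.1% in the same order, with anti-PD-1 lowest. The order of the other 3 libraries depended on depth. In macrophages as deep as the shallowest combination cell the share was 24.3% in the control, 32.1% under BTYNB and 23.1% under the combination, with BTYNB highest. In the anti-PD-1 library, tumour cells carried an Mgl2 UMI at 4.14%, against 0.162 to 0.335% in the other libraries. Part of the Mgl2 transcript cannot be told from its neighbour Clec10a, since 193 of its 1576 stretches of 60 bases also occur in Clec10a transcripts, and reads from there could have been given to either gene.

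The secreted proteins were carried by few cells. Retnla stood at 1169 CPM (1114 to 1227) in the control, 652 CPM (635 to 668) under BTYNB, 167 CPM (148 to 188) under anti-PD-1 and 1950 CPM (1918 to 1983) under the combination. Combination was highest and anti-PD-1 lowest, with no overlap of intervals. A Retnla UMI was found in 15.6% (control), 5.61% (BTYNB), 3.05% (anti-PD-1) and 17.9% (combination) of thinned macrophages, and those cells carried 40.8, 59.8, 21.0 and 71.0 UMIs each before thinning, up to 463 in a single cell. At least 50% of all Retnla UMIs of the gate lay in 8 cells of the control, 12 cells of BTYNB, 2 cells of anti-PD-1 and 27 cells of the combination, so that the counting interval understates the error of its level. Chil3 stood at 22.4 CPM (15.3 to 31.6) in the control, 103 CPM (97.0 to 110) under BTYNB, 7.34 CPM (3.79 to 12.8) under anti-PD-1 and 19.5 CPM (16.4 to 23.0) under the combination. BTYNB was highest and its interval was apart from the others, while control and combination overlapped. Of 1480 stretches of 60 bases in Chil3, 202 also occur in its near copy Chil4, but Chil4 had no UMI in the macrophages of any library.

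Folr2 followed the order of Arg1, at 113 CPM (95.8 to 131) in the control, 72.6 CPM (67.2 to 78.3) under BTYNB, 244 CPM (220 to 269) under anti-PD-1 and 156 CPM (147 to 165) under the combination, except that combination was above control. Gpnmb stood at 82.5 CPM (68.3 to 98.8) in the control, 12.6 CPM (10.4 to 15.1) under BTYNB, 34.3 CPM (25.9 to 44.5) under anti-PD-1 and 40.8 CPM (36.2 to 45.7) under the combination. It was lowest under BTYNB, highest in the control, and overlapping between the other 2 libraries. At least 50% of its UMIs lay in 6 cells of BTYNB and in 10 or 11 cells of each other library, so that its intervals understate the error. Cd163 was low throughout, with 17, 51, 47 and 67 UMIs, or 11.9, 5.51, 28.8 and 9.39 CPM in the control, BTYNB, anti-PD-1 and combination, and 3 cells held at least 50% of its UMIs under anti-PD-1. Spp1 stood at 25.2, 17.2, 20.2 and 10.6 CPM in the macrophages of these libraries against 17.8, 12.8, 189 and 14.1 CPM in their tumour cells. Its macrophage level was therefore at or below the tumour level under anti-PD-1 and combination and was not read as macrophage expression. Nos2 had 1, 8, 33 and 6 UMIs in the macrophages of the control, BTYNB, anti-PD-1 and combination. The 33 UMIs of anti-PD-1 lay in 10 cells, of which 2 held at least 50% of them.

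**Figure D2:**
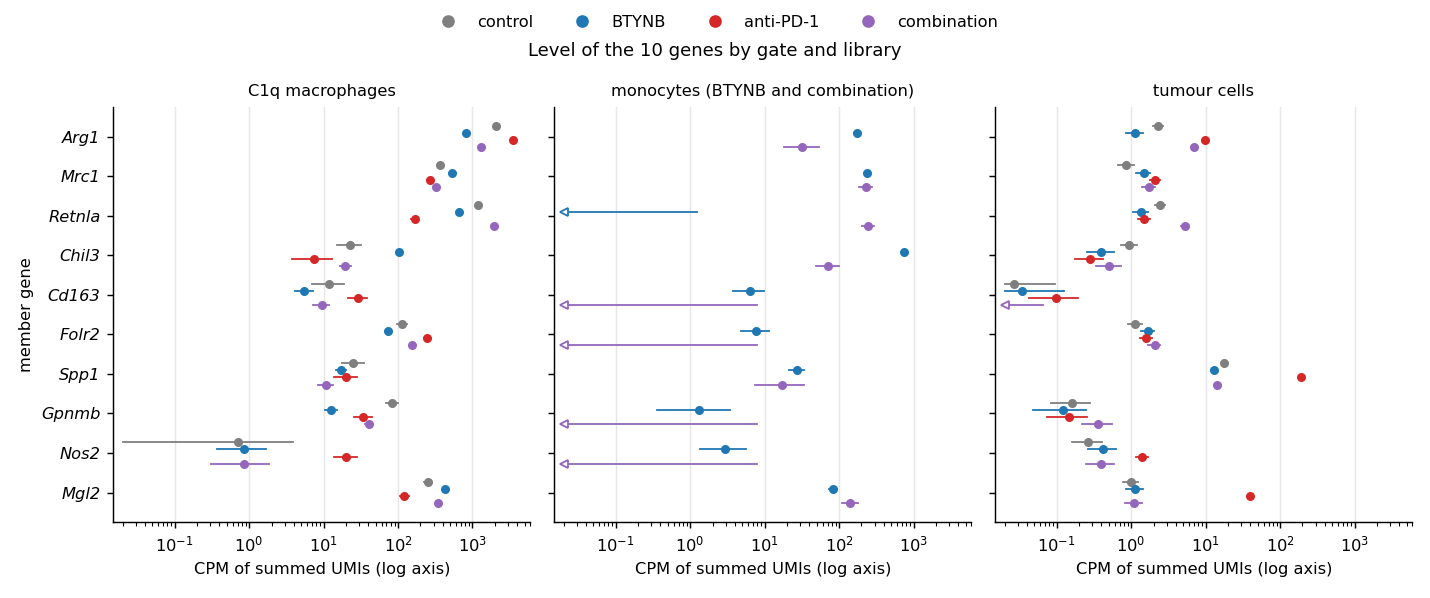
Level of each gene (x axis, CPM of summed UMIs on a log axis) in the 3 gates, with 1 point per library and lines for the exact Poisson interval; open triangles at the left edge mark levels of 0. In C1q macrophages the anti-PD-1 point is highest for Arg1, Folr2, Cd163 and Nos2 and lowest for Retnla, Chil3, Mrc1 and Mgl2, and in tumour cells the anti-PD-1 points of Spp1 and Mgl2 stand apart.

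BTYNB was compared with control to ask how these genes differed with the inhibitor in the absence of PD-1 blockade. Ratios are log2 ratios of CPM with 1 CPM added to both, and past 2-fold means at least 1 in either direction. Of the 8 members with at least 100 UMIs in either library, 3 were past 2-fold, where 6.24% of 7751 genes were. Arg1 was lower under BTYNB (log2 ratio -1.34, interval -1.40 to -1.28), as was Gpnmb (-2.61, -3.09 to -2.33), and Chil3 was higher (2.16, 1.70 to 2.77). Chil3 had 958 UMIs in BTYNB and 32 in control, so that it entered only through the library where it was high. The other 5 lay between -0.84 (Retnla) and 0.78 (Mgl2), and the median was -0.58 over these members and -0.0036 over all genes. With only cells as deep as the shallowest combination cell, 735 BTYNB and 154 control macrophages, Arg1 was -1.28 and Gpnmb -2.40, but Chil3 fell to 0.47. The monocyte markers of these gates stood at 4058 and 1613 CPM. With only the 148 and 60 macrophages that had no UMI of the monocyte genes Ccr2, Ly6c2 or Plac8, an alternative chosen after seeing the data, Arg1 was -0.59 and Gpnmb -1.72. Chil3 (-1.76), Retnla (1.70) and Folr2 (0.70) lay on the other side of 0 there, but Chil3 and Retnla, like Gpnmb, had under 100 UMIs in both libraries. Of the 3 members with 100 UMIs, 0 were past 2-fold.

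Combination was compared with anti-PD-1 to ask the same of BTYNB under PD-1 blockade. Of 7 members with 100 UMIs, 4 were past 2-fold, where 3.21% of 7218 genes were. Arg1 was again lower with BTYNB (-1.43, -1.47 to -1.38). Retnla (3.54, 3.37 to 3.72), Mgl2 (1.47, 1.27 to 1.70) and Chil3 (1.30, 0.56 to 2.39) were higher, and the median was 0.30 against 0.0053 over all genes. The combination gate held 7136219 UMIs and the anti-PD-1 gate 1634258, and Chil3, with 139 and 12 UMIs, entered only through the former. Both comparisons use different libraries. Arg1 and Folr2 were lower and Mrc1, Mgl2 and Chil3 higher with BTYNB in both, whereas Retnla was lower under BTYNB and higher under the combination. For Folr2, Chil3 and Retnla the direction in BTYNB against control turned in macrophages without the monocyte genes, as given above. There, Chil3 and Retnla had under 100 UMIs in both libraries. At the depth of the combination library only 66 anti-PD-1 macrophages were left, and Arg1 stood at -1.33, Mgl2 at 2.15, Chil3 at 1.76 and Retnla at 5.96. In macrophages without a UMI of the 3 monocyte genes (170 and 120 cells) Arg1 was -0.73.

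Anti-PD-1 was compared with control, and combination with BTYNB, to ask how they differed with the antibody. Of 6 members with 100 UMIs in anti-PD-1 or control, 4 were past 2-fold, where 1.45% of 2891 genes were. Folr2 was higher under anti-PD-1 (1.11, 0.85 to 1.39), and Retnla (-2.80, -3.00 to -2.62), Gpnmb (-1.24, -1.75 to -0.80) and Mgl2 (-1.02, -1.29 to -0.78) were lower. Gpnmb had 56 UMIs in anti-PD-1 and 118 in control, so that it entered only through the library where it was high. Arg1 was higher by 0.77 (0.70 to 0.83). With at most 0 keratin UMIs allowed, Mgl2 moved to -0.41, and at the depth of the combination library Gpnmb moved to -0.95 and Mrc1 from -0.48 to -1.12. Without the 3 monocyte genes Retnla turned to 4.0, in 120 and 60 cells, with under 100 Retnla UMIs in the control. Of 8 members with 100 UMIs in combination or BTYNB, 4 were past 2-fold, where 2.92% of 7900 genes were. Gpnmb (1.62, 1.38 to 2.01), Retnla (1.58, 1.54 to 1.63) and Folr2 (1.09, 0.96 to 1.24) were higher under the combination, and Chil3 was lower (-2.35, -2.68 to -2.15). At the depth of the combination library Folr2 moved to 0.85 and Chil3 to -0.85, and without the monocyte genes Folr2 was -0.0009 and Chil3 0.45.

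**Figure D3:**
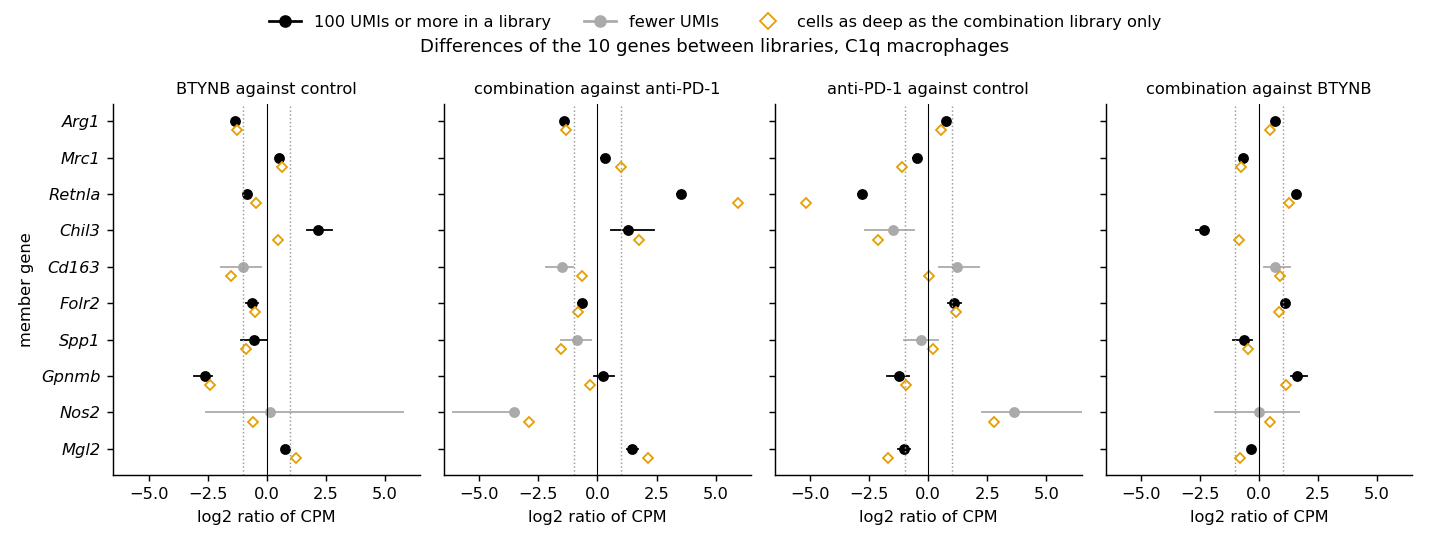
log2 ratio of CPM (x axis) for each gene in C1q macrophages, with 1 panel per comparison; black points passed 100 UMIs, grey points did not, lines are exact binomial intervals, and open diamonds use only cells as deep as the shallowest combination cell. Dotted lines mark 2-fold. Arg1 sits left of -1 in BTYNB against control and in combination against anti-PD-1, and Retnla changes side between them.

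In monocytes, combination against BTYNB had 3 of the 5 members with 100 UMIs past 2-fold, where 10.7% of 4553 genes were. Chil3 (33 and 2285 UMIs) and Arg1 (15 and 526 UMIs) entered only through BTYNB, and Retnla (116 and 0 UMIs) only through the combination. Each entered through the library where it was high, so that the count is no result about the members. Chil3 stood at 756 CPM (725 to 788) under BTYNB and 70.7 CPM (48.7 to 99.3) under the combination, a log2 ratio of -3.40. Arg1 stood at 174 CPM (159 to 190) and 32.1 CPM (17.98 to 53.0), a log2 ratio of -2.40. Both were higher in the BTYNB gate, which also carried the neutrophil markers, while the combination gate carried more of the dendritic markers Xcr1 and Clec9a. The part of such cells in the difference was not tested. Retnla was counted as higher under the combination, but all of its 116 UMIs there lay in 1 of 64 cells, and that cell was lost when 0 keratin UMIs were allowed. It had 0 UMIs in 704 BTYNB monocytes, with an upper interval limit of 1.22 CPM, against 652 CPM in the macrophages of the same library. Mrc1 did not differ beyond counting error (241 and 227 CPM, log2 ratio -0.08, -0.39 to 0.21). Within BTYNB, macrophages were above monocytes in Arg1 by 2.24 on the log2 scale (2.12 to 2.37), in Mgl2 by 2.37 (2.20 to 2.57) and in Folr2 by 3.09 (2.66 to 3.92), and below them in Chil3 (-2.86, -2.98 to -2.76).

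Detection per cell separated the 10 genes into sets that were found together and sets that were found apart. At least 1 of the 10 was detected in 91.8% (control), 78.9% (BTYNB), 92.4% (anti-PD-1) and 82.8% (combination) of macrophages thinned to 2000 UMIs. For each pair, the share of cells with both was set beside the product of the separate shares, as a description with no test, since the cells of a library share its depth and its free RNA. Of 45 pairs, 21 had a product of at least 1 cell in each library. Among these, 7 were above the product in all 4 libraries and 6 below it in all 4.

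Arg1 went with Gpnmb and Folr2. Gpnmb was detected in 15.7% of Arg1-positive and 0.948% of Arg1-negative macrophages of the control, in 2.54 and 0.429% under BTYNB, in 6.71 and 0.0161% under anti-PD-1 and in 8.69 and 0.184% under the combination. Folr2 was detected in 23.9 and 4.41% in the control, 18.2 and 3.63% under BTYNB, 36.0 and 14.6% under anti-PD-1 and 29.9 and 9.77% under the combination. The ratio of joint detection to the product was 1.13 to 2.26 for Arg1 with Folr2, 1.24 to 2.37 for Arg1 with Gpnmb and 1.19 to 3.71 for Folr2 with Gpnmb.

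Mgl2 was largely found in other macrophages. It was detected in 8.32% of Arg1-positive and 46.5% of Arg1-negative macrophages of the control, in 9.99 and 23.6% under BTYNB, in 5.37 and 23.4% under anti-PD-1 and in 6.77 and 35.3% under the combination. Its ratio with Arg1 was 0.292 to 0.606, and with Gpnmb at most 0.295. Macrophages with Arg1 and without Mgl2 were 56.0% in the control, 27.3% under BTYNB, 76.3% under anti-PD-1 and 39.8% under the combination. Those with Mgl2 and without Arg1 were 18.1%, 16.5%, 4.53% and 20.3%, and those with both 5.08%, 3.03%, 4.33% and 2.89%. The share with neither was 20.8% in the control and 53.2% under BTYNB, 14.8% under anti-PD-1 and 37.1% under the combination, and was thus higher in both libraries with BTYNB.

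Mgl2 went with Retnla and Mrc1. Mgl2 was detected in 50.2% of Retnla-positive and 18.2% of Retnla-negative macrophages of the control, in 41.3 and 18.2% under BTYNB and in 35.8 and 20.4% under the combination, with 19, 34 and 59 cells expected to carry both. In anti-PD-1 only 4 cells were expected to carry both. Mrc1 was found with Retnla at 1.42 to 1.63 times the product and with Mgl2 at 1.33 to 1.59 times. Retnla and Chil3 were apart. In BTYNB 0.0725% of macrophages carried both, where the product was 0.814%, and under the combination 0.0266% against 0.504%. Chil3 was detected in 1.29% of Retnla-positive and 15.3% of Retnla-negative macrophages of BTYNB.

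**Figure D4:**
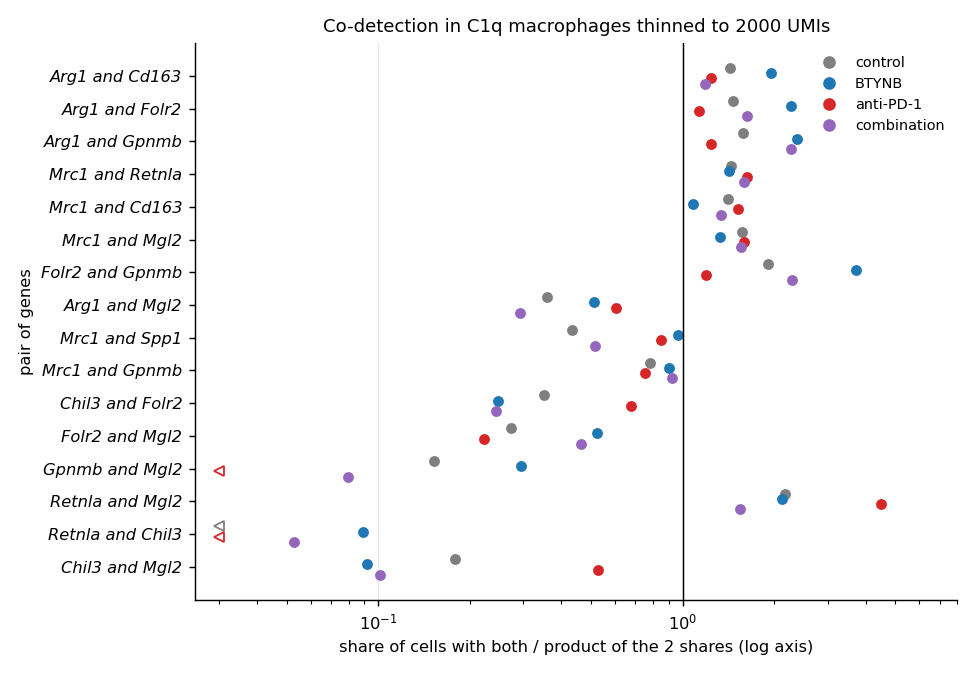
Share of C1q macrophages with both genes of a pair divided by the product of the 2 separate shares (x axis, log axis), with 1 row per pair and 1 point per library, after thinning to 2000 UMIs; open triangles at the left edge mark values near 0. The upper 7 pairs lie right of 1 in all 4 libraries and the next 6 left of it, and the 3 pairs at the bottom are Retnla with Mgl2, Retnla with Chil3 and Chil3 with Mgl2.

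**Figure D5:**
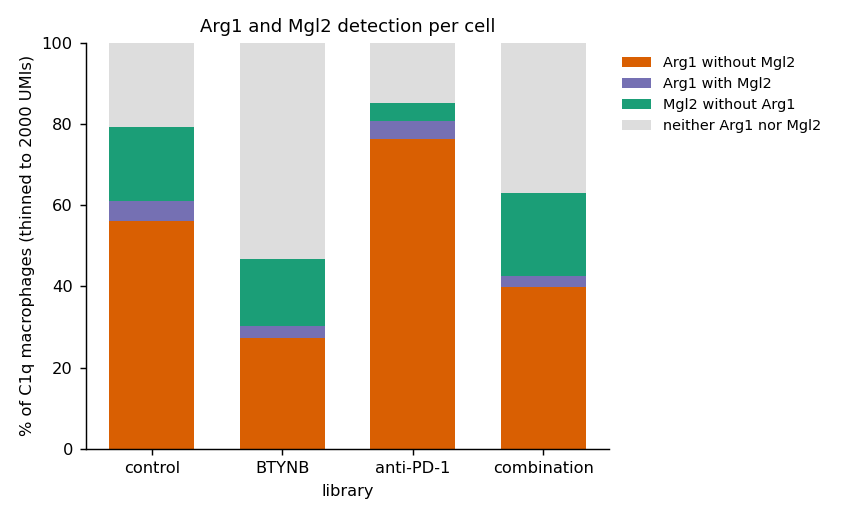
Share of C1q macrophages (y axis, percent, thinned to 2000 UMIs) by detection of Arg1 and Mgl2, with 1 bar per library. Cells with both genes are the thin band of 2.89 to 5.08%, and the grey share with neither gene is larger under BTYNB and combination than in the control and anti-PD-1.

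The rest of the transcriptome was then ranked by its ratio between macrophages with and without a UMI of a member. For Arg1, 2341 genes had 100 UMIs in each of the 4 libraries, and the 5 with the highest smallest ratio were Marco, a scavenger receptor, Cd5l, a secreted scavenger protein of tissue macrophages, Fcna, a ficolin of the lectin complement pathway, Padi4, a peptidylarginine deiminase, and Fabp7, a fatty acid binding protein. Marco was at 240 CPM in Arg1-positive macrophages and listed at 0 in Arg1-negative macrophages of the control, at 42.1 and 0.187 CPM under BTYNB, at 257 and 0 CPM under anti-PD-1 and at 123 and 1.82 CPM under the combination. Fcna was at 362 and 4.57 CPM in the control, 158 and 8.23 CPM under BTYNB, 466 and 15.8 CPM under anti-PD-1 and 401 and 18.1 CPM under the combination. Ccr2, a monocyte marker, ran the other way, with log2 ratios of -0.30 (BTYNB) to -1.89 (control) between Arg1-positive and Arg1-negative cells.

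For Mgl2, 3 libraries had at least 50 cells of both kinds, and the 5 genes were Ear2, a secreted ribonuclease, H2-DMb2, a subunit of the chaperone that loads MHC class II, Olfm1, Ccnd2, a cyclin, and Trerf1. Ear2 was at 675 and 36.2 CPM with and without Mgl2 in the control, 614 and 22.9 CPM under BTYNB and 555 and 45.6 CPM under the combination. For Retnla, BTYNB and combination entered, and the genes were Lyz1, a lysozyme, Fcrls, a receptor-like scavenger, Aldh1a2, a retinoic acid synthesising enzyme, Cd226 and Ear2. Aldh1a2 was at 120 and 12.7 CPM under BTYNB and 166 and 15.3 CPM under the combination. Ear2 ranked for both Mgl2 and Retnla. Lyz1 has the near copy Lyz2, and Ear2 belongs to a family of close copies, so that the counts of both are uncertain. For Chil3, in the same 2 libraries, the genes were ENSMUSG00000120878, Lrg1, Thbs1, Il1b, the gene of interleukin 1 beta, and Igkc, an immunoglobulin chain of B-lineage cells, and their smallest ratios were 1.18 to 1.45 on the log2 scale, against 2.26 or more for Retnla. Il1b was at 702 and 272 CPM under BTYNB and 178 and 76.5 CPM under the combination. For Spp1 only BTYNB had enough cells (69 with a UMI), and Trac and Il2rb, genes of T and NK cells, were among the 5 beside Adamts9, Spn and Slpi, at 38.7 CPM against 10.1 CPM for Trac.

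In the tumour cells of anti-PD-1, Mgl2 and Spp1 were above the other libraries. Mgl2 stood at 1.0 CPM in the control, 1.12 CPM under BTYNB, 39.2 CPM under anti-PD-1 and 1.09 CPM under the combination, and Spp1 at 17.8, 12.8, 189 and 14.1 CPM. An Mgl2 UMI was carried by 959 of 10923 anti-PD-1 tumour cells (8.78%), up to 28 UMIs in a cell, and 389 cells carried at least 3. In those 959 cells the keratin gene Krt18 was at 1113 CPM against 633 CPM in tumour cells without Mgl2. Wt1, also a gene of the tumour gate, went the other way, at 450 CPM against 684 CPM. Among genes of macrophages and other leukocytes, C1qb was at 13.5 and 9.68 CPM, Tyrobp at 13.3 and 6.94 CPM, Mrc1 at 4.71 and 1.78 CPM and Retnla at 5.97 and 0.963 CPM. Arg1 was slightly lower, at 8.84 and 9.83 CPM. The part of macrophage RNA in these cells was not tested. Mgl2-positive tumour cells had Spp1 at 334 CPM against 171 CPM, and the MHC class II genes H2-Aa at 328 CPM against 1562 CPM and Cd74 at 226 CPM against 874 CPM. Clec10a, which shares sequence with Mgl2, was at 17.4 and 4.61 CPM. In the control, where 37 of 7114 tumour cells had an Mgl2 UMI, those cells carried C1qb at 40.4 CPM against 3.37 CPM and Krt18 at 379 CPM against 376 CPM.

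Genes of the pathway around the members were counted in macrophages by the same rule. The share of all genes past 2-fold was 6.24% in BTYNB against control, 3.21% in combination against anti-PD-1 and 2.92% in combination against BTYNB, and the counts below are read against it. In combination against anti-PD-1 every gene of these lists that was higher past 2-fold had under 100 UMIs in anti-PD-1 and entered only through the combination, the library where it was high, so that the counts of higher genes there are no result about the lists. Of 16 genes of IL-4 and IL-13 signalling, 12 passed 100 UMIs in BTYNB or control, 1 was higher past 2-fold (Kdm6b, a histone demethylase induced by IL-4, log2 ratio 1.29), none was lower, and the median was 0.39. That count is near the 6.24% of all genes. In combination against anti-PD-1, 12 passed and 2 were higher, Pparg, a nuclear receptor of lipid metabolism (1.51, from 113 and 8 UMIs), and Irf4, a transcription factor downstream of STAT6 (1.21, from 110 and 10 UMIs), which was named after its value was seen. Stat6 was at 92.9, 106, 86.3 and 103 CPM in the control, BTYNB, anti-PD-1 and combination, and Tyk2, a kinase of the receptor, at 18.9, 25.3, 20.8 and 26.8 CPM. The ligand genes Il4 and Il13, also named after their values were seen, were at or below 0.216 CPM in all macrophage gates.

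Of 17 other alternative activation genes, 12 passed in BTYNB against control, with 1 higher and 3 lower (6.24% over all genes), and 12 in combination against anti-PD-1, with 3 higher and 2 lower (3.21% over all genes). The gene higher in BTYNB against control was Clec10a, with 856 and 54 UMIs, which entered only through BTYNB, the library where it was high. Clec10a, a C-type lectin that shares sequence with Mgl2, was at 37.7, 92.4, 23.3 and 71.7 CPM in the control, BTYNB, anti-PD-1 and combination. This was the order of Mgl2. The inhibitory receptor gene Cd200r1 was at 23.8, 33.8, 13.5 and 33.9 CPM. The growth factor gene Igf1 (81.8, 32.4, 53.2 and 33.4 CPM) and Il10, an inhibitory cytokine (30.7, 16.1, 37.3 and 16.1 CPM), were lower in both libraries with BTYNB. Among 18 classical activation genes 14 passed in BTYNB against control, with 2 higher and 0 lower (6.24% over all genes), and 15 in combination against anti-PD-1, with 1 higher and 2 lower (3.21% over all genes). The 2 higher genes, Il1b (3134 and 70 UMIs) and Cxcl9 (663 and 30 UMIs), named after their values were seen, entered only through BTYNB. Cd86, a costimulatory ligand, was at 118, 223, 50.8 and 162 CPM and Cd80 at 59.4, 96.3, 37.3 and 69.5 CPM, Irf5, a transcription factor of classical activation, at 81.8, 115, 69.1 and 93.7 CPM, and the formyl peptide receptor gene Fpr2 at 92.2, 71.6, 165 and 70.9 CPM.

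Among 11 arginine and polyamine genes 10 passed in each of these comparisons, and Slc7a2, a cationic amino acid transporter that brings arginine into macrophages, was the only gene past 2-fold in both. It was at 146, 36.0, 239 and 62.5 CPM, with log2 ratios of -1.99 and -1.92. Srm, the spermidine synthase, was at 23.8, 15.01, 31.2 and 17.0 CPM, Amd1, an enzyme of polyamine synthesis, at 12.6, 22.2, 11.01 and 18.8 CPM, and Got1, an aspartate aminotransferase, at 89.5, 139, 64.9 and 89.0 CPM. Of 14 hypoxia response genes 13 passed in both comparisons, with 0 higher and 1 lower in BTYNB against control, which is near the 6.24% over all genes. In combination against anti-PD-1, 0 were higher and 5 lower, where 3.21% of all genes were past 2-fold, and the median was -0.94. Egln3, an oxygen-sensing prolyl hydroxylase, was at 43.3, 20.2, 113 and 22.7 CPM, Ero1a, an oxidase of the endoplasmic reticulum, at 94.3, 67.2, 123 and 49.5 CPM, Ldha, lactate dehydrogenase A, at 431, 393, 550 and 327 CPM, and Hif1a at 157, 284, 116 and 153 CPM.

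Of 14 lipid-associated macrophage genes, 0 were higher and 4 lower of 13 in BTYNB against control (6.24% over all genes). In combination against anti-PD-1, 1 was higher and 0 lower of 14, near the 3.21% over all genes. The tetraspanin genes Cd9 (305, 81.6, 258 and 169 CPM) and Cd63 (238, 97.5, 234 and 126 CPM), Fabp5, a fatty acid binding protein (185, 70.2, 197 and 135 CPM), and Ctsb, the lysosomal protease cathepsin B (3911, 2509, 5066 and 3565 CPM), were lowest under BTYNB. Of 10 resident macrophage genes, 0 were higher and 3 lower of 5 in BTYNB against control (median -1.48, 6.24% over all genes). In combination against anti-PD-1 the genes past 2-fold were Icam2 (log2 ratio 1.10, 364 and 38 UMIs), F5 (1.12, 633 and 66 UMIs) and Selp (1.17, 382 and 38 UMIs), all higher, named after their values were seen. In combination against BTYNB (2.92% over all genes), Gata6 (1.96), Cd5l (2.63) and F5 (1.75) were higher with at least 100 UMIs in both, while Icam2 (2.34, 364 and 86 UMIs), Vsig4 (2.0, 139 and 38 UMIs) and Selp (3.97, 382 and 23 UMIs) entered only through the combination. Gata6, the transcription factor of resident peritoneal macrophages, was at 46.8, 11.01, 58.1 and 45.8 CPM, Lyve1, a hyaluronan receptor, at 48.9, 17.0, 62.4 and 32.9 CPM, and Cbr2, a carbonyl reductase, at 74.8, 60.4, 138 and 112 CPM. These 3 genes were lower in the combination than in anti-PD-1, the other direction from Icam2, F5 and Selp. Cd5l, which is in this list, also ranked with Arg1 above.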

How the data were processed

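Ascites cells of 4 groups, pooled over animals, were measured by single-cell RNA sequencing on the BD Rhapsody system, with 1 library per group. The authors processed the reads with version v2.0 of the BD Rhapsody pipeline and deposited raw UMI counts per gene and cell, with GRCm39 named in the submitters' processing notes. Cells with under 200 genes or over 33% mitochondrial (mt- prefix) UMIs were left out here, which kept 7834, 18283, 12019 and 7042 cells. The study's doublet calls were not used here and no doublet caller was run. The keratin limit and an alternative without lymphocyte-marker and the 5% deepest cells address doublets. UMIs were summed per gate and library and given as CPM. Ratios add 1 CPM, and a gene entered with at least 100 UMIs in either library. Poisson intervals were used for levels, exact binomial intervals for ratios and shares. Shares and co-detection are expected values after drawing 2000 UMIs per cell without replacement. With 1 library per group no test was made. Ratios and thinning were tested on simulated data.

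The 10 genes, the gene lists and the gates were chosen with earlier results of these data known. All 10 genes are named. From each list, up to 4 genes are named, those of equal sign in BTYNB against control and combination against anti-PD-1, ranked by the smaller of the 2 absolute log2 ratios. For 5 members, the 5 genes are named with the highest smallest ratio between macrophages with and without the member over libraries with at least 50 cells of both kinds. Kinds of cell outside the gates were set by at least 10 UMIs of S100a8 and S100a9, or at least 2 UMIs of dendritic or lymphocyte genes. Stretches of 60 bases shared by near copies were counted in GENCODE vM21 transcripts, and upstream windows came from RefSeq (GRCm38.p6). No coordinate was carried between builds. Python 3.11.15, numpy 2.4.6, scipy 1.17.1 and pandas 2.3.3 were used.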

Additional observations from a re-analysis of the deposited data

Results flagged for a closer look

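Retnla in C1q macrophages moved in opposite directions with BTYNB in the 2 antibody backgrounds. Its log2 ratio was -0.84 in BTYNB against control and 3.54 in combination against anti-PD-1. It also moved in opposite directions with the antibody, at -2.80 in anti-PD-1 against control and 1.58 in combination against BTYNB. Gpnmb did the same with the antibody, at -1.24 in anti-PD-1 against control (56 and 118 UMIs) and 1.62 in combination against BTYNB. Each interval lay on 1 side of 0, but with 1 library per group none of these differences between comparisons was tested. In macrophages without a UMI of Ccr2, Ly6c2 or Plac8, Retnla stood at 1.70 in BTYNB against control and 5.05 in combination against anti-PD-1. It stood at 4.0 in anti-PD-1 against control and 7.35 in combination against BTYNB, so that all of these were above 0. These cells were few, chosen after seeing the data and not matched for depth, and Retnla had under 100 UMIs in BTYNB and in control there. Whether the opposite movements were lost cannot be told from them.

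In the tumour gate, which served as background, Mgl2 stood at 39.2 CPM and Spp1 at 189 CPM in anti-PD-1, against 1.0 and 17.8 CPM in control. These levels rest on 1 library, and the difference was not tested.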

How the results depend on the processing

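No paired analysis was possible because each group has 1 library. Of 54 counts of members past 2-fold recomputed in all, 45 stayed within 1.5 times. Allowing 0 keratin UMIs gave 5 members in BTYNB against control and 2 in anti-PD-1 against control. Cells as deep as the shallowest combination cell gave 2 in combination against BTYNB. No minimum of UMIs gave 7 in anti-PD-1 against control and 7 in monocytes. Macrophages with no UMI of Ccr2, Ly6c2 or Plac8, an alternative chosen after seeing the data, gave 0 in BTYNB against control, 1 in anti-PD-1 against control, 2 in combination against anti-PD-1 and 2 in combination against BTYNB. In those cells Chil3 turned to -1.76 in BTYNB against control and 0.45 in combination against BTYNB, Retnla to 4.0 in anti-PD-1 against control, and Folr2 to -0.0009 in combination against BTYNB. Both Chil3 and Retnla had under 100 UMIs there in BTYNB and in control. Those macrophages were 60 to 170 cells per library, and the cause was not tested. Of 236 recomputed ratios that were past 2-fold in the main values, 229 kept their sign and 207 also stayed past 2-fold. No minimum of 100 UMIs was asked of these ratios, so that members below it are among them. The library with the highest share of positive macrophages was the same for 6 of 10 members without thinning. With only the deep cells, C1q macrophages held the largest share of UMIs in all 4 libraries for 2 members, not 6. Comparisons of monocytes with control or anti-PD-1 were not made, since their gates held 10 and 2 cells. Depth limits Cd163 and Nos2, with at most 67 UMIs in any macrophage gate.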

Other observations

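The monocyte gates of control (10 cells) and anti-PD-1 (2 cells) entered no comparison. In control, Chil3 had 70 UMIs, of which 65 lay in a single cell, Retnla had 59 UMIs in a single cell, and Arg1 had 5 UMIs. In anti-PD-1, all 16 Arg1 UMIs lay in 1 cell.

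Outside the gates, leukocytes that had Ptprc but neither C1q, monocyte, neutrophil, dendritic nor lymphocyte markers carried Retnla at 1901 CPM in control (52 cells), 157 CPM in BTYNB (2317 cells), 630 CPM in anti-PD-1 (33 cells) and 1216 CPM in combination (174 cells). The same cells carried Mgl2 at 545, 288, 53.0 and 545 CPM. Dendritic-marker cells carried Mgl2 at 992 CPM in control (46 cells), 453 CPM in BTYNB (1216 cells), 406 CPM in anti-PD-1 (27 cells) and 385 CPM in combination (673 cells).

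In BTYNB monocytes, Mrc1 was detected in 40.1% of Arg1-positive and 21.7% of Arg1-negative cells, and Chil3 in 45.3 and 46.4%.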
